A study of Oryzias latipes with 4 samples.

Results

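The 4 genes aass, aadat, aasdh and aasdhppt, whose names refer to aminoadipate, an intermediate of lysine breakdown, were followed in the brain and pituitary of medaka in the models MEDAKA053533, MEDAKA049393, MEDAKA013370 and MEDAKA011884, in that order. They are 4 of the 93896 transcript models of the deposited table and were taken by their model identifiers, not by their values. Earlier results of these data were known, however, when these genes and the lists below were chosen. The tissue was the ventral telencephalon, the hypothalamus and the pituitary of female Oryzias latipes, collected 16 h after fish kept in the condition called SD were moved to the one called LD. RNA-seq, which measures the amount of RNA, and Ribo-seq, which sequences the pieces of mRNA that ribosomes shield from nuclease, were each run on 2 libraries, LD RNA-seq 1 and 2 and LD Ribo-seq 1 and 2. All 4 libraries share this sex, tissue, move and time, so that only the assays can be compared. Nothing in the labels says whether the replicates came from separate fish or pools, so p-values measure only the spread between these libraries, which may be technical.

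In vertebrates, lysine is broken down in mitochondria mainly through saccharopine. AASS carries out the first steps, ALDH7A1 turns the resulting semialdehyde into aminoadipate, AADAT removes its amino group, and a dehydrogenase complex with DHTKD1 passes the product on towards glutaryl-CoA. AADAT also transaminates kynurenine, a product of tryptophan breakdown that is turned in brain into the neuroactive kynurenic acid. The other genes carry related names for another reason. AASDH resembles a fungal enzyme of lysine synthesis and its part in vertebrate lysine breakdown is not established, and AASDHPPT attaches the phosphopantetheine arm that carrier proteins such as fatty acid synthase and the mitochondrial acyl carrier protein need. Thus aass and aadat belong to the lysine route proper, and aasdh and aasdhppt do so by name.

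The models carry no names in the table, and the names rest on position against RefSeq assembly ASM223467v1. aass lay on chromosome 6 from 1225125 to 1261000 in a model of 2345 nt, against 1219880 to 1260500 for the RefSeq gene. aadat lay on chromosome 18 from 18883895 to 18893304 (1989 nt), aasdh on chromosome 4 from 3959308 to 3968099 (4036 nt), and aasdhppt on chromosome 13 from 20880907 to 20886130 (1458 nt). Model and RefSeq gene covered each other by at least 87.1%, 78.2%, 91.9% and 100% in that order. aass and aasdhppt overlapped no other model, while aadat overlapped 1 and aasdh 3, which bears on their values as given below.

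Markers of neurons, hypothalamus and pituitary were present. In RNA-seq 1 and 2, snap25 of neurons had 351 and 355 FPKM, pomc of pituitary cells 247 and 231, oxt of hypothalamic neurons 66.2 and 71.0. The markers of radial glia and astrocytes differed widely among themselves, with glul at 254 and 273 FPKM, slc1a2 at 12.2 and 12.8 and slc1a3 near 0, at 0.152 and 0.179. The pituitary hormone gene prl was also near 0, at 0.114 to 0.367 FPKM over the 4 libraries. The 5 pituitary markers with a model summed to 642 and 412 FPKM by RNA and 1832 and 1870 by footprints, and their part in the differences below was not tested. Liver, where lysine breakdown is also active, was checked by the fibrinogen genes fga, fgb and fgg, which summed to 2.27 and 1.84 FPKM by RNA and to 0.276 and 0.0718 by footprints. Across the 5702 tested models with a symbol, replicates correlated at a Spearman's rho of 0.978 for RNA-seq and 0.962 for Ribo-seq, and libraries of different assays at 0.792 to 0.799. Genes, over which these correlations run, are not independent replicates. The values are FPKM (fragments per kilobase scaled to the size of the library), a scale per length. The region and length used for footprints are not given, which limits comparisons of footprint levels and of assay differences from gene to gene. Depth is unknown.

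The 4 genes were all detected by both assays at low to moderate level, with aass the highest in each library. aass, the bifunctional enzyme that starts lysine breakdown, stood at 14.3 FPKM in RNA-seq 1, 16.3 in RNA-seq 2, 16.0 in Ribo-seq 1 and 27.8 in Ribo-seq 2. Its ribosome footprints overlapped the RNA range at the lower end and exceeded it in Ribo-seq 2. aadat, the aminotransferase, had 5.26 and 4.34 FPKM by RNA and 3.22 and 5.19 by footprints, and the assays overlapped. aasdh, the relative of the fungal enzyme, had 3.54 and 4.31 FPKM by RNA and 0.554 and 1.13 by footprints. Both of its footprint values were below both RNA values. aasdhppt, the phosphopantetheinyl transferase, had 7.23 and 6.97 FPKM by RNA and 3.84 and 5.48 by footprints, again with both footprint values below both RNA values. These positions depend on the scaling. After division by the scaling factors, RNA against footprints was 10.2 and 12.4 against 24.7 and 30.1 for aass. It was 3.76 and 3.29 against 4.95 and 5.61 for aadat, and 5.17 and 5.28 against 5.91 and 5.92 for aasdhppt. In these genes both footprint values were then above both RNA values. aasdh had 2.53 and 3.26 against 0.852 and 1.22, with both footprint values still below. The share of all models whose assays separate in this way is not given here, so separation is not read as a trait of these genes. For comparison, 52.5% of tested models with a symbol were called higher and 6.02% lower under this scaling, in the fit described below. In all 4 genes Ribo-seq 2 was above Ribo-seq 1, and the scaling factor of Ribo-seq 2 was also the higher one (0.925 against 0.651). In these bulk samples, fewer cells that express a gene and less RNA per cell cannot be told apart.

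**Figure D1:**
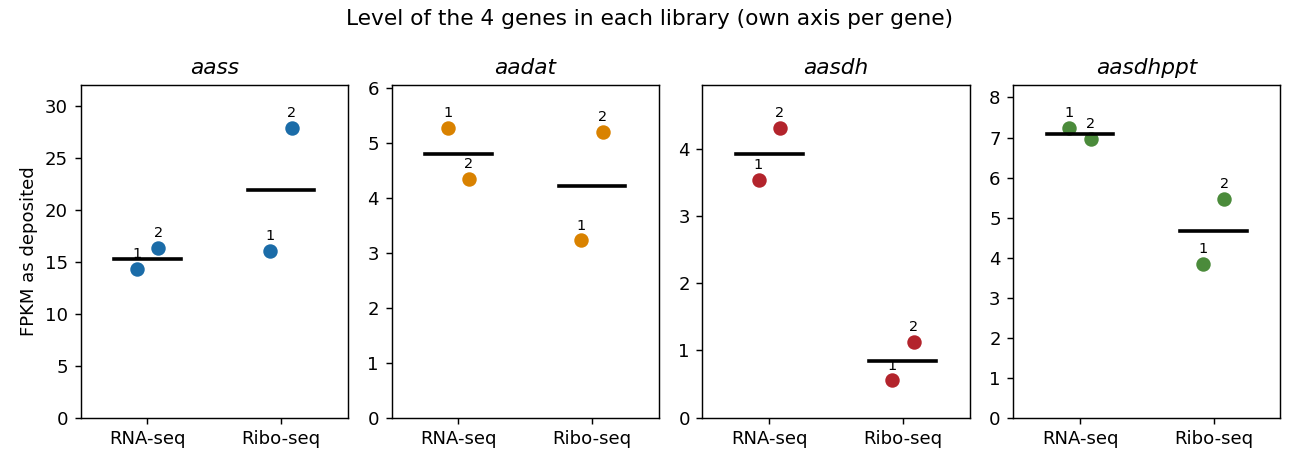
Deposited FPKM of aass, aadat, aasdh and aasdhppt in each library, 1 panel per gene with its own axis from 0; points are libraries with their replicate number and bars are means of 2. Footprints of aasdh lie at 0.554 and 1.13 against RNA at 3.54 and 4.31, while the assays overlap in aass and aadat on this deposited scale. After scaling of the libraries aass and aadat no longer overlap.

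By RNA the order of levels was aass at 15.3 ± 1.45 FPKM (SD, n = 2), aasdhppt at 7.10 ± 0.185, aadat at 4.80 ± 0.651 and aasdh at 3.93 ± 0.541. The last pair barely separated, since the lower aadat library (4.34) and the higher aasdh library (4.31) were nearly equal. By footprints the order was the same, with aass at 21.9 ± 8.34 FPKM (SD, n = 2), aasdhppt at 4.66 ± 1.15, aadat at 4.21 ± 1.39 and aasdh at 0.843 ± 0.408. Here aasdhppt and aadat did not differ beyond their spread, and aasdh was set off from aadat.

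Placed among the 5702 tested models with a symbol, aass exceeded 84.2% and 86.4% of them in RNA-seq 1 and 2, and 83.5% and 84.4% in Ribo-seq 1 and 2. Its rank was thus much alike in both assays. aadat exceeded 47.6% and 39.5% by RNA and 38.8% and 39.5% by footprints. For aasdhppt the share was 61.9% and 59.5% by RNA and 44.5% and 41.1% by footprints. aasdh went from 30.7% and 39.2% by RNA to 4.3% and 6.6% by footprints, the largest move of the 4. These ranks do not depend on how the libraries are scaled. They do depend on the limit of a mean FPKM of at least 1 over both assays, which aasdh passed only through its RNA.

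To ask which of the genes carried more or fewer footprints for their RNA, the whole table was fitted and the rows of the 4 genes were read from it. All 4 passed the limit of a mean FPKM of at least 1. aasdh did so only through its RNA, as its footprint mean was 0.843 FPKM. Its lower call, given below, stayed without that limit (limma, adjusted p = 0.044). Each log2 difference subtracts RNA-seq from Ribo-seq on the scale of scaled FPKM plus 1, which understates the difference of low genes, and a gene was called at an adjusted p below 0.05 over all 50625 tested models. aass was called higher in Ribo-seq, with a log2 difference of 1.20 ± 0.19 (SE; limma, adjusted p = 0.010). aasdh was called lower, with a difference of -0.94 ± 0.22 (SE; limma, adjusted p = 0.027), and its scaled footprint FPKM was 0.358 of its scaled RNA FPKM. The remaining pair did not pass the test: aadat had 0.47 ± 0.18 (limma, adjusted p = 0.093) and aasdhppt 0.15 ± 0.15 (adjusted p = 0.45).

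These counts, 1 higher and 1 lower of 4, are read against the background. Of all tested models, 23.9% were called higher and 33.7% lower. Of the tested models with a symbol, 52.5% were called higher and only 6.02% lower, with a median log2 difference of 0.77. A higher call was thus the more frequent outcome of a named gene, and the difference of aass lay 0.44 above that median and above 69.6% of the named models. That median includes low models, and the added 1 shrinks differences at low levels. With a pseudocount of 0.1 the median of named models was 0.94, and aass lay 0.33 above it. Among named models with a mean FPKM of at least 5 the median was 1.13, and aass lay only 0.074 above it and above 53.4% of them. What sets these medians apart was not tested. Among all tested models with a symbol, aadat lay above 36.5% and aasdhppt above 23.8%. Among those with a mean FPKM of at least 5, aasdhppt lay above 13.3%, while aadat and aasdh were not tested. aasdh lay 1.70 below the median of all tested named models and above only 4.1% of them. It entered this set only through its RNA, so this place is not separate support for its lower call. A median of named models near its own level was not taken.

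**Figure D2:**
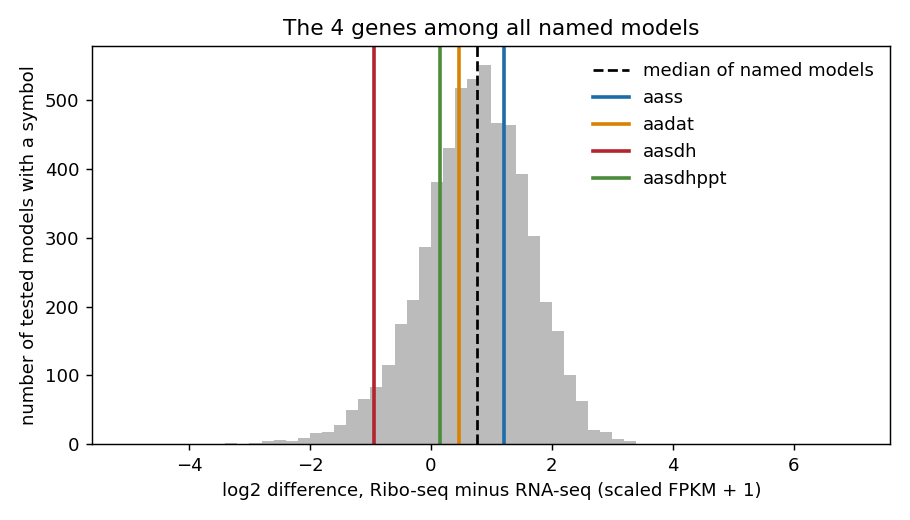
Histogram of the log2 difference (Ribo-seq minus RNA-seq, scaled FPKM plus 1) of the 5702 tested models with a symbol, with a dashed line at their median and a coloured line for each of the 4 genes. aass at 1.20 is to the right of the median of 0.77, aadat and aasdhppt are to its left, and aasdh at -0.94 is in the lower tail.

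The sign of a difference depends on the scaling, because FPKM is relative to each library and holds no overall level. The median of named models was 0.77 with median-ratio scaling over all models, 0.45 with upper quartile scaling, 0.13 with FPKM as deposited and 0.06 with median-ratio scaling over named models only, an alternative chosen after seeing the data. aasdh was called lower under each of these 4 scalings, with -0.94, -1.20, -1.43 and -1.50 in that order and, in limma, adjusted p from 0.0058 to 0.027. aass stayed positive at 1.20, 0.83, 0.45 and 0.37, but was not called with FPKM as deposited (limma, adjusted p = 0.39) or with scaling over named models (0.10). The sign of aadat (0.47, 0.15, -0.18 and -0.25) and of aasdhppt (0.15, -0.19, -0.53 and -0.60) turned, and aasdhppt was called lower under the last of these scalings. For comparison, of the named models 8.42% were called higher and 10.9% lower with FPKM as deposited (480 and 619), and 24.3% and 20.4% with scaling over named models (1386 and 1163), against 2992 and 343 under the scaling used here. Relative to the median of named models, aass lay between 0.31 and 0.44 above it under these 4 scalings and aasdh between 1.56 and 1.70 below it. With a pseudocount of 0.1 aasdh lay 2.34 below it. Without RNA-seq 1 or RNA-seq 2, the calls of aass (1.08 and 1.33) and aasdh (-1.07 and -0.80) were lost with the direction kept. Far fewer named models were called in general in those fits.

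**Figure D3:**
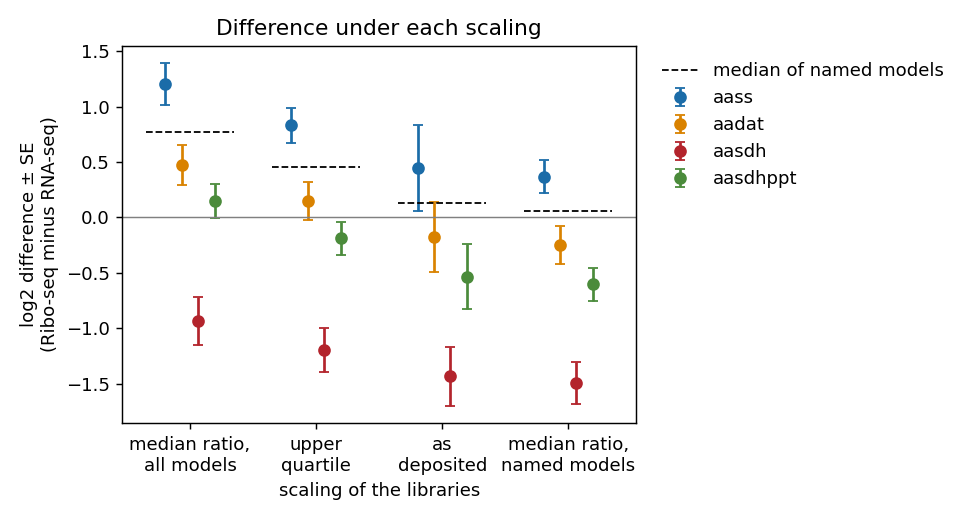
Log2 difference with its SE (limma, 4 libraries) of the 4 genes under each scaling of the libraries, with a dashed line at the median of named models. The order aass, aadat, aasdhppt, aasdh is the same under each, while the zero line moves with the scaling.

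Ratios between the genes within a library do not depend on the scaling. The FPKM of aass was 4.03 and 3.79 times that of aasdh in RNA-seq 1 and 2, and 28.9 and 24.6 times in Ribo-seq 1 and 2. Both footprint ratios were far above both RNA ratios. Against aadat, its neighbour in the lysine route, the ratio of aass was 2.72 and 3.77 by RNA and 4.98 and 5.37 by footprints. Against aasdhppt it was 1.98 and 2.35 by RNA and 4.17 and 5.09 by footprints. The ratio of aadat to aasdh rose from 1.48 and 1.01 to 5.82 and 4.59, with no overlap between the assays. aadat stayed below aasdhppt in each library, at 0.728 and 0.623 of its FPKM by RNA and 0.839 and 0.948 by footprints. On log2(deposited FPKM + 1), the scale of the test, the change of the ratio from RNA to footprints was 1.88 for aass over aasdh, 1.25 for aadat over aasdh, 0.98 for aass over aasdhppt, 0.62 for aass over aadat, 0.35 for aadat over aasdhppt and -0.90 for aasdh over aasdhppt. The added 1 makes this scale depend on the scaling and shrinks changes that involve low genes: the change of aass over aasdh was 2.14 with scaled FPKM and 2.77 with no pseudocount, and that of aadat over aasdh 1.41 and 2.08. In none of the 6 pairs did the assays overlap. The share of other pairs of models that separate in this way is not given here, so this is not read as a trait of these genes. Each gave p = 0.333 in a two-sided exact permutation test (adjusted over the 6 pairs 0.333), the smallest that 2 against 2 libraries allow. The 6 pairs reuse the same 4 genes and are not independent, and other pairs of models were not examined.

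As a share of the summed FPKM of the 4 genes, aass took 47.1% and 51.1% by RNA and 67.8% and 70.2% by footprints. The share of aasdh was 11.7% and 13.5% by RNA and 2.34% and 2.85% by footprints, and that of aasdhppt 23.8% and 21.8% against 16.2% and 13.8%. aadat took much the same share in both assays, 17.3% and 13.6% by RNA and 13.6% and 13.1% by footprints.

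**Figure D4:**
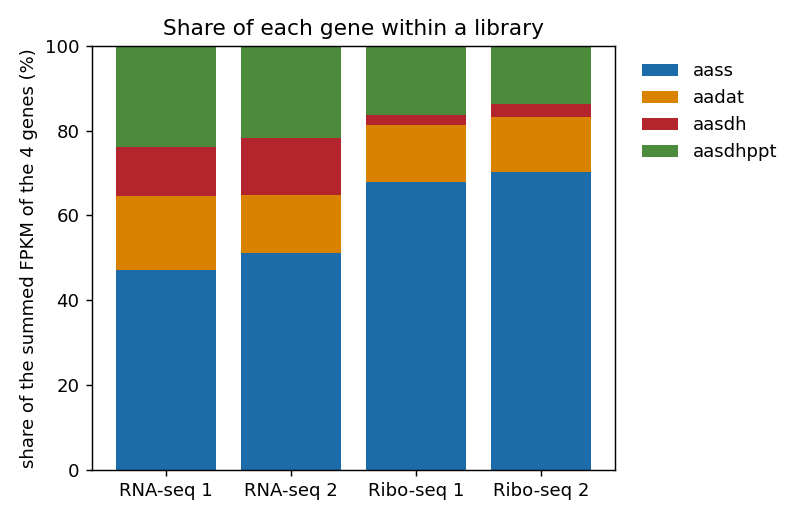
Share of each gene in the summed FPKM of aass, aadat, aasdh and aasdhppt, in percent, 1 stacked bar per library. aass grows from 47.1% and 51.1% in RNA-seq to 67.8% and 70.2% in Ribo-seq, and aasdh shrinks from 11.7% and 13.5% to 2.34% and 2.85%.

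Reads of overlapping models cannot be told apart where neither strand nor its use in counting is given. The aadat model shared 2151 bp, 22.9% of its span, with a model named ino80b by position (MEDAKA049389), a subunit of a chromatin remodelling complex. That model had 6.65 and 6.53 FPKM by RNA and 3.54 and 6.37 by footprints, a level close to that of aadat, and was not called, at a log2 difference of 0.28 (limma, adjusted p = 0.26). Within the span of aasdh lay the unnamed 825 nt model MEDAKA013382, with 1.29 and 2.22 FPKM by RNA and 0.310 and 1.08 by footprints and a difference of -0.35 (limma, adjusted p = 0.38). A second model, MEDAKA013362, shared 581 bp with aasdh and had 12.8 and 11.4 FPKM by RNA and 7.73 and 12.6 by footprints. The third, MEDAKA013363, shared 576 bp at the other end and had 0.442 to 1.14 FPKM. How far shared reads enter the values of aadat and aasdh was not tested.

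The other genes of lysine breakdown, transport and use were called higher in 11 of 18 cases, beside 52.5% of named models. Of 25 such genes in RefSeq, 20 had a model and 18 were tested. Higher calls numbered 11 of these 18, lower calls 0 and uncalled genes 7 by limma. At an unadjusted p below 0.05 in limma, 14 were higher and 0 lower, beside 3324 and 409 of the 5702 named models. The median log2 difference of the 18 was 1.57, and 13 of them lay above the median of named models of 0.77. The 11 called genes all had a mean FPKM of at least 5, and named models at that level had a median of 1.13. How far level enters the counts of this list was not tested. Without RNA-seq 1 the calls of aldh7a1, dhtkd1, dld, gcdh, hadh and slc7a2 were lost, and without RNA-seq 2 those of dhtkd1, dld and slc7a2. Named models in general were also called far less often there. The deposited values without scaling left 1 higher and 0 lower call, and scaling over named models 8 and 2.

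aldh7a1, the true aminoadipate semialdehyde dehydrogenase, had 5.30 and 5.42 FPKM by RNA and 9.78 and 12.9 by footprints and was called, at a log2 difference of 1.65 ± 0.15 (SE; limma, adjusted p = 0.0041). Its footprints were above its RNA in both libraries, unlike those of aasdh, which shares the enzyme's name. dhtkd1, of the oxoadipate dehydrogenase complex, had 7.34 and 7.20 FPKM by RNA and 9.26 and 10.9 by footprints and was called at 1.13 (limma, adjusted p = 0.0096). dlst, the complex's transferase subunit shared with the citrate cycle, was called at 1.77, from 16.4 ± 1.08 to 34.5 ± 9.15 FPKM (SD, n = 2). dld was called at 1.69. This symbol is used both for dihydrolipoamide dehydrogenase and for a Notch ligand, and position cannot tell which is meant.

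gcdh, the glutaryl-CoA dehydrogenase, had the largest difference of the called genes in the list, 2.01, with 19.3 and 20.4 FPKM by RNA and 37.4 and 62.0 by footprints. etfdh, which passes the electrons of such dehydrogenases to ubiquinone, was called at 1.81. etfb, a subunit of its electron donor, was matched to a model of 291 nt, which need not cover the whole gene. It was listed at or near 0 by RNA and at 5.25 and 0.813 FPKM by footprints, and was not called at 2.04 (limma, adjusted p = 0.11). It was called with a pseudocount of 0.1 (4.82), without Ribo-seq 1 (0.91) and without Ribo-seq 2 (3.18).

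Of the acyl-CoA enzymes after gcdh, echs1, an enoyl-CoA hydratase, was called at 1.92, hadha, a subunit of the trifunctional protein, at 1.89 and hadh, a hydroxyacyl-CoA dehydrogenase, at 0.88. The call of hadh was lost with upper quartile scaling (0.50; limma, adjusted p = 0.060). The thiolase acat1 was not called at 0.78 (limma, adjusted p = 0.071), except without Ribo-seq 2 (1.03), and ehhadh, a bifunctional enzyme of peroxisomes, was not tested at 0.689 to 1.25 FPKM.

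Among the genes of transport and use, slc7a2, a carrier of cationic amino acids matched to a model of only 492 nt, was called at 1.49 and aldh9a1, of carnitine synthesis from lysine, at 1.75. slc25a29, a mitochondrial carrier of basic amino acids, was not called at 0.17, but was called lower with scaling over named models (-0.66). kars, the lysyl-tRNA synthetase, had 10.7 and 10.7 FPKM by RNA and 7.36 and 14.7 by footprints and was not called at 0.70 (limma, adjusted p = 0.058), except without Ribo-seq 1 (0.93).

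Of the branches beside the main route, crym, a ketimine reductase of the pipecolate branch that also binds thyroid hormone, had 1.82 to 2.58 FPKM in all libraries and was not called at 0.76 (limma, adjusted p = 0.055), except without Ribo-seq 2 (0.95). pipox, the pipecolate oxidase of the same branch, was at most 0.0832 FPKM in any library and was not tested. phykpl, of hydroxylysine breakdown, was not called at -0.29, but was called lower without Ribo-seq 2 (-0.66) and with scaling over named models (-0.96). hykk, the kinase before it, was matched to a model of 183 nt and was not called at 0.62. Its sign depended on the Ribo-seq library left out, with 3.004 without Ribo-seq 2 and -1.77 without Ribo-seq 1. It had 17.1 FPKM in Ribo-seq 1 and 0 in Ribo-seq 2.

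**Figure D5:**
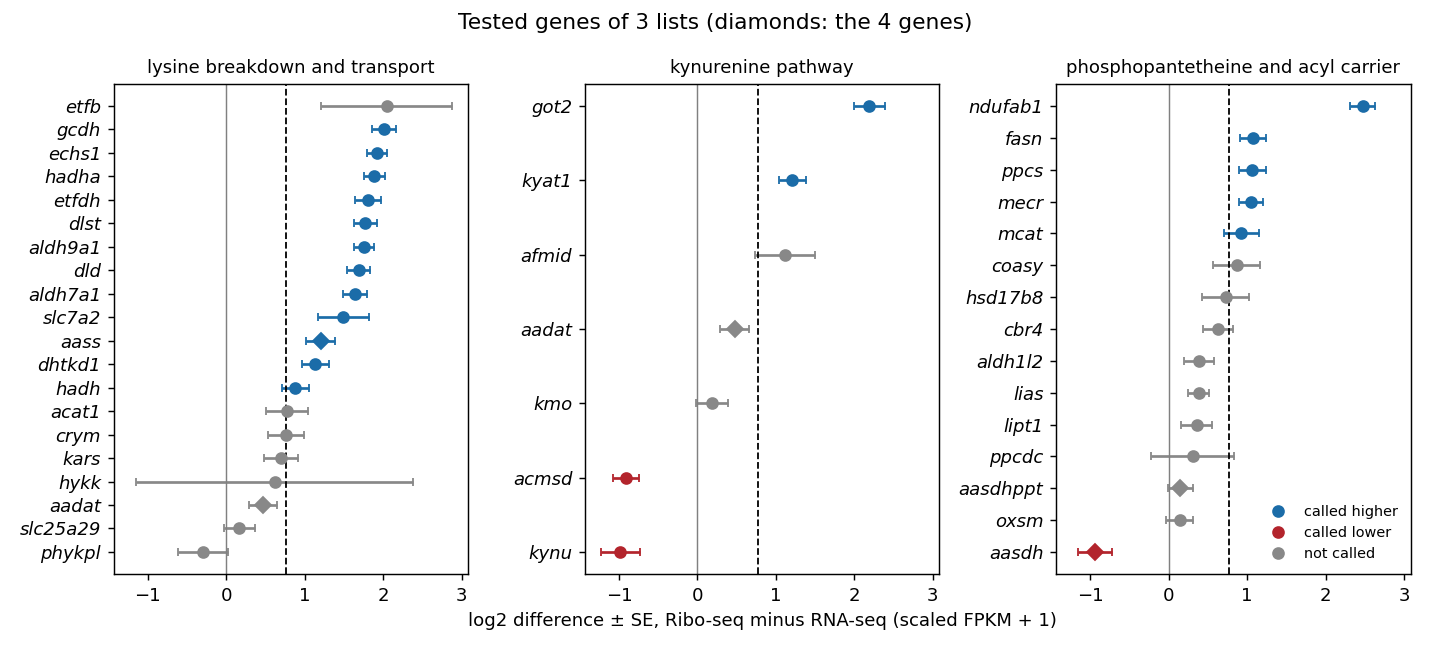
Log2 difference with SE (limma, 4 libraries) of each tested gene of the lysine, kynurenine and phosphopantetheine lists, with the 4 genes as diamonds, blue for called higher, red for called lower and grey for not called; the dashed line is the median of named models, 0.77. aass lies within the called lysine genes, aadat below most of them, and aasdh lowest in its panel.

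In the kynurenine pathway, which aadat also serves, 2 of 6 tested genes other than aadat were called higher, 2 lower and 2 neither, beside 52.5% higher and 6.02% lower among named models, with a median of 0.65. got2, the mitochondrial aspartate aminotransferase, had 45.4 and 51.8 FPKM by RNA and 96.7 and 173 by footprints, a difference of 2.19, and kyat1, another kynurenine aminotransferase, had 2.28 and 2.14 against 3.31 and 4.68, a difference of 1.21. kynu, the kynureninase, had 2.60 and 2.16 FPKM by RNA and 0.444 and 0.137 by footprints, a difference of -0.98 ± 0.25 (SE; limma, adjusted p = 0.034). acmsd, a later enzyme of the same branch, had 2.14 and 1.83 against 0.287 and 0.182, a difference of -0.90 ± 0.17 (limma, adjusted p = 0.015). Like aasdh, kynu and acmsd passed the filter only through their RNA, with footprint means of 0.290 and 0.234 FPKM. The differences of both were near that of aasdh (-0.94) on this scale but not with a pseudocount of 0.1. There kynu had -2.07, acmsd -1.96 and aasdh -1.41. The 4 calls were lost without RNA-seq 1 and without RNA-seq 2, and those of kynu and acmsd also without Ribo-seq 2. Calls of named models in general were far fewer without either RNA-seq library. The call of kynu was further lost with no filter and with a pseudocount of 0.1. afmid, the kynurenine formamidase, was not called at 1.12 (limma, adjusted p = 0.075), except without Ribo-seq 1 (1.59), and tdo2, the tryptophan dioxygenase, was at most 0.193 FPKM.

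Among the genes of phosphopantetheine and acyl carrier function, the setting of aasdhppt, 13 were tested besides aasdh and aasdhppt, and 5 were called higher, 0 lower and 8 neither (limma; at an unadjusted p below 0.05, 7 higher and 0 lower), beside 52.5% higher and 6.02% lower among named models. Their median of 0.73 was close to the 0.77 of named models, and the difference of aasdhppt, 0.15, lay below it. ndufab1, the mitochondrial acyl carrier protein and a substrate of the transferase in mammals, had 42.4 and 39.4 FPKM by RNA and 101 and 176 by footprints, a difference of 2.47. fasn, the cytosolic fatty acid synthase, had 5.37 and 5.86 against 6.13 and 9.45, a difference of 1.07. The mitochondrial fatty acid synthesis enzymes mecr and mcat had 1.05 and 0.92, and ppcs, of coenzyme A synthesis, 1.07. lias, the lipoic acid synthase, had 30.2 and 29.5 FPKM by RNA and 17.9 and 28.3 by footprints. It was not called at a difference of 0.38 (limma, adjusted p = 0.080), but was called lower with scaling over named models (-0.47). aldh1l2, a folate enzyme that carries the arm, was not called either (0.39). Each of the 5 calls was lost when either RNA-seq library was left out, where far fewer named models were called in general.

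The named models closest to each gene were taken as those with the smallest Euclidean distance over the 4 libraries on the log2 scale of scaled FPKM plus 1. For aass they were sult4a1 (distance 0.124), dcaf11 (0.126) and dnajb14 (0.163), with log2 differences of 1.13 to 1.21. For aadat they were styx (0.0851), dennd4c (0.141) and cog1 (0.151). Those of aasdhppt were hdac4 (0.0957), tcf3 (0.143) and adam9 (0.147). aasdh had its closest models farther off, slc40a1 (0.217), ogn (0.218) and esr2 (0.273), with log2 differences of -0.95, -0.93 and -0.70. Why they lay farther off was not tested. The distance uses the same values as the log2 difference, so similar differences follow from the choice of models.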

How the data were processed

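The authors deposited 1 table of FPKM per library for 93896 transcript models, per the file headers. TopHat2 2.1.0 and Cufflinks 2.2.1 appear, with no role stated, per the submitters' processing notes. Genome build, annotation and the region used for footprints are not given in these sources. The model length used beside the FPKM is another deposited value, a number of bases. FPKM hold no depth, so counting error is not given. To infer the build, model ends were set against ends of protein-coding genes in RefSeq assembly ASM223467v1: 2137 agreed within 10 bp, against a mean of 60 after a shift of 20 kb, with more agreement before the shift on 24 of 24 chromosomes. Names required at least 50% overlap of both spans, with 1 best model per gene, and 7242 models received one. No nucleotide or protein sequence was used here. Starts are written from 1.

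Libraries were divided by median-ratio factors (RNA-seq 1.40 and 1.32, Ribo-seq 0.651 and 0.925) over models above 0 in each. The log2 of scaled FPKM plus 1 was fitted across all 50625 models with a mean FPKM of at least 1 in limma 3.58.1 (R 4.3.3, mean-variance trend, Benjamini-Hochberg) with assay as the only term. The procedure was run on simulated data with few models changed, as many up as down, and noise modelled on RNA-seq. That simulation does not test the choice of scaling or the spread of Ribo-seq. Exact permutation tests compared ratios between genes, in Python 3.11.15 with numpy 2.4.6, pandas 2.3.3 and scipy 1.17.1. Alternatives were other scalings, pseudocount, filters, a replicate block and leaving out each library. Named were the 4 genes, models overlapping them, genes of 3 pathway lists, and the 3 closest models. Genes and lists were chosen with earlier results of these data known.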

Additional observations from a re-analysis of the deposited data

How the results depend on the processing

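In the 11 of 11 settings that tested all 4 genes, the order of the log2 differences was aass, aadat, aasdhppt, aasdh. Ratios between 2 of them were followed only with a pseudocount of 0.1 and without each library in turn, and none changed direction. The 11 settings are not separate tests of the order. The fit used here, the one with no filter and the one with the replicate block share the same differences by design. A change of scaling moved all 4 genes the same way, so it could hardly alter the order. With FPKM as deposited, aass fell to 0.45 without a call, aadat turned to -0.18 and aasdhppt to -0.53; 2425 of all models were then called higher, 480 named models higher and 619 lower, 0 of the 4 genes higher, and 1 lysine, 1 kynurenine and 1 phosphopantetheine gene higher. With scaling over named models, chosen after seeing the data, the values were 0.37, -0.25 and -0.60; 5482 of all models were higher, 1386 named models higher and 1163 lower, 0 of the 4 genes higher and 2 lower, 2 lysine genes lower, and 1 phosphopantetheine gene higher and 1 lower. Upper quartile scaling turned aasdhppt to -0.19 and called 583 named models lower. At a mean FPKM of at least 5, aadat and aasdh were not tested, nor were kynu, acmsd, kyat1, mcat and ppcs. There 4477 of all models, 117 named models, 0 of the 4 genes and 0 kynurenine genes were lower, and 1 kynurenine and 3 phosphopantetheine genes higher. The calls missing from these 2 lists are those of genes left untested. With no filter 28801 models were lower, and 1 kynurenine gene was lower there and with a pseudocount of 0.1.

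Leaving out each library in turn gave 1.07 to 1.34 for aass and -1.07 to -0.80 for aasdh. The counts ranged from 1638 to 14700 higher and 9279 to 18988 lower among all models, 379 to 3333 and 69 to 385 among named models, 0 to 1 and 0 to 1 among the 4 genes, 5 to 15 and 0 to 1 among lysine genes, 0 to 3 and 0 to 2 among kynurenine genes, and 0 to 8 higher among phosphopantetheine genes. A lone library is there assumed to vary like the others. Some pathway genes left uncalled by the fit used here changed sign, while acat1, crym, etfb and afmid kept theirs in each setting that tested them. slc25a29 went to -0.59 as deposited, -0.21 with upper quartile scaling and -0.66 with scaling over named models. It had -0.0018 without RNA-seq 1 and 0.34 without RNA-seq 2. With FPKM as deposited and with scaling over named models, kars went to -0.033 and -0.11 and aldh1l2 to -0.31 and -0.38. lias went to -0.39 and -0.47 in the same order. With scaling over named models, slc25a29 and lias were called lower (limma, adjusted p = 0.029 for each). hykk went to -0.59 with a pseudocount of 0.1 and from -1.77 to 3.004 without Ribo-seq 1 or 2. phykpl went from -0.66 to 0.080 without Ribo-seq 2 or 1. Of 320 values of single pathway genes under alternatives, 241 kept direction and side of the threshold. They come from the tested lysine genes and, of the kynurenine and phosphopantetheine lists, from the genes called and those with the highest RNA level. The other uncalled genes of those lists were not followed singly, so their changes of sign are not given. The causes were not tested.

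Replicate numbers are shared between the assays, but nothing says that they pair libraries, and the deviations of same-numbered libraries correlated at 0.068 across models. With the replicate block, aass (1.20; limma, adjusted p = 0.014) and aasdh (-0.94; adjusted p = 0.046) kept their calls, 11131 models were called higher and 16488 lower, and of the pathway genes mcat lost its call. Unknown depth limits what can be said of the low genes.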

Other observations

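The 3 named neighbours of these genes that do not overlap them were not called in either direction by limma. intu, a cilium gene beside ino80b and aadat, had 54.4 and 38.1 FPKM in RNA-seq and 27.1 and 51.0 in Ribo-seq, with overlapping assays and a log2 difference of 0.50 (limma, adjusted p = 0.15). ppat, the enzyme that starts purine synthesis and lies near aasdh, had 1.62 and 1.56 FPKM in RNA-seq and 0.693 and 0.908 in Ribo-seq, a difference of -0.10 (adjusted p = 0.59 in limma). msantd4, next to aasdhppt, had 5.53 and 7.07 against 2.30 and 2.36 FPKM and a difference of -0.48 (adjusted p = 0.17 in limma). On deposited FPKM, its footprints were below its RNA in each library, as were those of aasdhppt before scaling. Inside the RefSeq span of aass, before the start of its model, lay an unnamed model of 864 nt (MEDAKA053531) with 0.242 and 0.169 FPKM in RNA-seq, listed at 0 in both Ribo-seq libraries.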
